A study of Mus musculus with 12 samples.

Results

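Regulatory T cells (Tregs) are known to carry surface enzymes that turn extracellular ATP into adenosine. Transcripts of 5 genes of this pathway were followed in sorted mouse Tregs with and without CD25, a subunit of the receptor for interleukin-2. The genes were taken by symbol: Entpd1 (CD39), Nt5e (CD73), P2rx7 (the ATP receptor P2X7), Ada (adenosine deaminase) and Adora2a (the adenosine A2A receptor). All 5 were among the 24421 lines of the count table, and all 5 were among the 12461 genes that passed the filter on low counts and were tested.

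Total RNA was sequenced from 12 libraries in 4 groups of 3: wild-type (WT) central Tregs, CD25 knockout (KO) central Tregs, WT effector Tregs and KO effector Tregs. Each library pooled spleen and lymph nodes of 2 to 3 mice, whose age the labels do not give. Central Tregs (cTreg) were gated as CD62L-high and effector Tregs (eTreg) as CD62L-low, and the KO cells were in addition gated as CD25-low. Deletion of CD25 and this added gate therefore cannot be told apart in KO against WT, also for Il2ra itself. A change with CD25 loss below means the difference of KO from WT. All mice, WT as well as KO, carried R26tomato+/+ and Foxp3eGFPERT2+/+, received tamoxifen at 2 mg/kg intraperitoneally for 5 days, and were harvested 10 days later. The label field for genotype gives CD25FL/FL to the samples titled WT and CD25WT/WT to those titled KO, the reverse of what the titles and the cell type field say. Groups here follow the titles. By its name the Foxp3eGFPERT2 allele is expressed from Foxp3, the gene that marks Tregs.

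As background, ATP that leaves stressed or dying cells acts on P2X and P2Y receptors, and P2X7 is the T cell receptor best known for opening an ion channel in response to it. CD39 removes phosphates from ATP and ADP to give AMP, and CD73 turns AMP into adenosine, which acts through A2A receptors to raise cyclic AMP and restrain T cells. Adenosine deaminase ends the signal by turning adenosine into inosine, and in mice P2X7 can also be triggered by NAD through the ectoenzyme ARTC2. Tregs are known for holding both CD39 and CD73.

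Il2ra, which encodes CD25, was lower in every KO library: its level was 464 to 579.6 CPM (counts scaled to the library's size, with TMM factors) in the 6 WT libraries and 112 to 131 CPM in the 6 KO libraries. Library totals ran from 14567313 to 19121577 counts. The ribosomal RNA precursor Rn45s took 18.1% to 24.4% of the counts in cTreg libraries and 3.19% to 4.34% in eTreg libraries. Of markers of other cells known to carry CD39 or CD73, the B cell gene Ms4a1 had no count in any cTreg library and a mean of at most 0.172 CPM in eTreg. The summed level of the 5 B cell markers was nearly all Cd79b. It ran from 11.4 to 12.8 CPM in WT cTreg, 7.63 to 9.63 in KO cTreg, 14.8 to 15.3 in WT eTreg and 9.29 to 11.2 in KO eTreg. The 5 monocyte and macrophage markers summed to between 5.14 and 15.4 CPM, with the highest value in KO cTreg. Of these, Itgam was higher in KO cTreg, at 2.89 to 6.13 CPM against 0.937 to 2.07 in WT cTreg (log2 fold change 1.66 ± 0.51; edgeR's adjusted p = 0.0300), while Cd68 did not pass (-0.27 ± 0.17; adjusted p = 0.261). The part of these markers in the results below was not tested. In bulk RNA, fewer cells that carry a transcript and less of it per cell cannot be told apart.

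The 2 gates differed in all 5 genes. Nt5e, Entpd1 and P2rx7 were higher in eTreg than in cTreg, and Ada was lower, in both genotypes. Adora2a was higher in WT eTreg than in WT cTreg and lower in KO eTreg than in KO cTreg. All 5 genes were called in WT cells, where 71.5% of the 12461 genes were called, 35.7% higher and 35.8% lower (an adjusted p under 0.05 in edgeR's quasi-likelihood test, adjusted over all genes tested), and all 5 in KO cells, where 72.0% were called, 36.1% higher and 35.8% lower. With so large a background, the count of members called says little by itself, and the size of the differences is given below gene by gene. The libraries of the 2 gates did not overlap in any of the 5 genes in either genotype, as was the case for 74.9% and 74.6% of all genes tested.

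In cTreg 4 of the 5 genes differed between KO and WT: Ada, Entpd1 and P2rx7 were lower and Adora2a was higher in KO, while Nt5e did not pass the test. Markers of Treg state also differed between these libraries: Foxp3 (-0.79 ± 0.06) and Ccr7 (-0.61 ± 0.07) were lower in KO cTreg, and Cd44 (0.77 ± 0.09) was higher on the log2 scale (± SE). Klrg1 (mean 1.01 CPM in WT and 4.58 in KO cTreg) and Itgae (42.6 and 91.1 CPM) were higher as well, and all 5 were called by edgeR. Of the Treg and T cell markers besides Foxp3 and Il2ra, none was called lower in KO cTreg. Some were called higher, Cd4 (0.47 ± 0.06) among them. Cd44, Klrg1 and Itgae, markers of the effector gate, summed to 135 to 183 CPM in WT cTreg, 272 to 315 in KO cTreg and 544 to 693 in WT eTreg. Their part in the changes of the 4 genes was not tested. In this comparison 27.5% of all genes tested were called, 14.8% higher and 12.6% lower. The libraries of the 4 genes did not overlap, as held for 40.4% of all genes. In eTreg none of the 5 genes was called by edgeR's quasi-likelihood test, in a comparison that called 6.65% of all genes; at an unadjusted p under 0.05 the count was 1, Entpd1, and the DESeq2 Wald test and limma-voom called none of the 5 either. All 5 overlapped between KO and WT eTreg, where 25.2% of all genes did not. Among all calls in eTreg 48.9% were higher in KO, and 37.0% or 35.5% with upper-quartile scaling or library size without Rn45s. A fit of only the 6 eTreg libraries called 771 genes, and the same fit with same-numbered libraries blocked called 1712, with Entpd1 as the 1 member among them. A block over all 12 libraries called 857, with no member. The count was 455 without library 2 of WT eTreg, 497 without its library 3 and 462 without library 3 of KO eTreg.

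**Figure D1:**
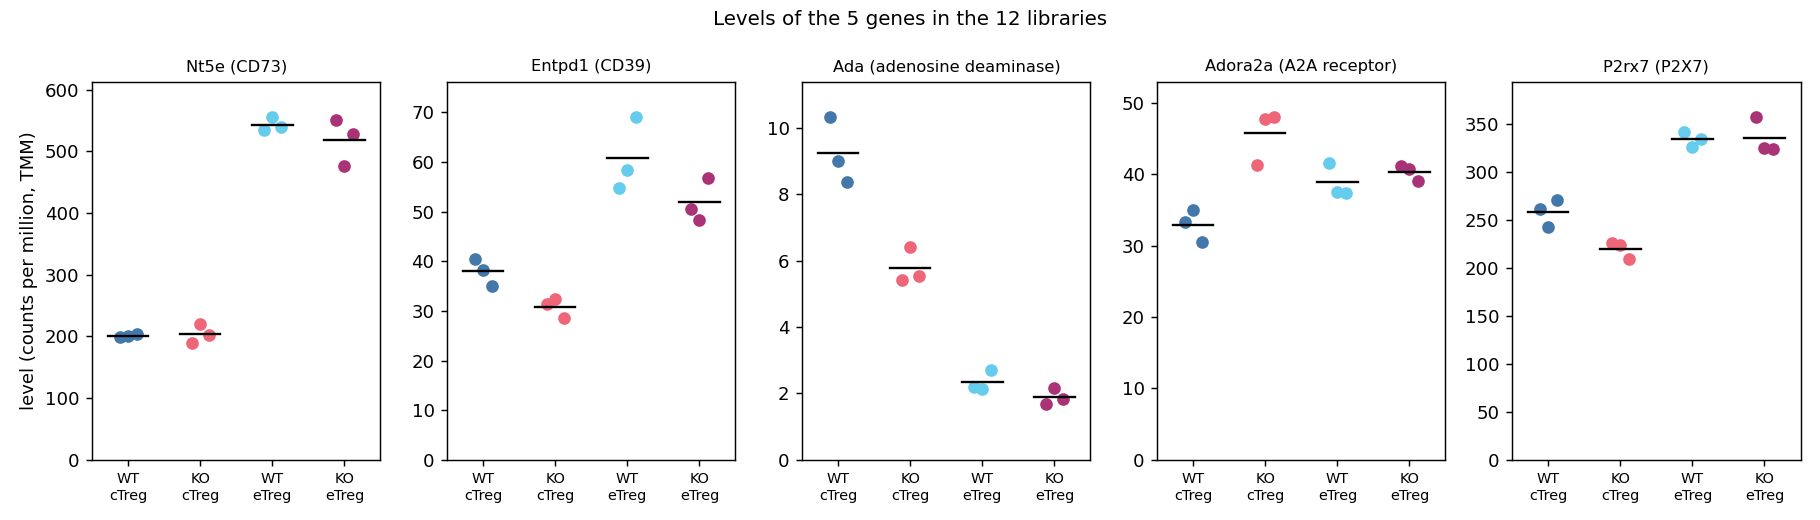
Level of each gene in CPM (TMM-scaled, linear axes from 0) in the 4 groups; points are libraries (3 per group) and the black line is their mean. Nt5e, Entpd1 and P2rx7 are higher and Ada is lower in the eTreg gate, and in the cTreg gate Adora2a is higher and Ada lower in KO than in WT.

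Nt5e, the gene of CD73, lies on chromosome 9 (88327197 to 88372092, plus strand, mm10) with 8602 bases of exon. In WT cTreg libraries 1, 2 and 3 its level was 199, 200.4 and 204 CPM, and it was 189, 220.3 and 203 CPM in those of KO cTreg. In eTreg it was 534, 556 and 539.8 CPM in WT and 551, 477 and 529 CPM in KO. The eTreg libraries stood far above all cTreg libraries, and within each gate the KO and WT values overlapped; in eTreg 2 of 3 KO libraries lay below all WT libraries.

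The step from cTreg to eTreg was 2.70-fold in WT (log2 fold change 1.43 ± 0.06 SE, n = 3 per group; edgeR's adjusted p = 5.74e-12) and 2.54-fold in KO (1.35 ± 0.06; adjusted p = 1.58e-11). The change with CD25 loss was 0.02 ± 0.06 in cTreg (edgeR's adjusted p = 0.829), with a 95% interval from -0.11 to 0.15. In eTreg it was -0.07 ± 0.06 (adjusted p = 0.600), with an interval from -0.19 to 0.06. KO cTreg kept a level of Nt5e that was 2.66-fold below that of WT eTreg (log2 fold change -1.41 ± 0.06; edgeR's adjusted p = 1.43e-11).

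Per length, Nt5e was among the most abundant transcripts of the pathway. Its CPM per kilobase of exon (RPKM) was 63.2 ± 1.35 in WT eTreg (SD, n = 3), second of the 78 genes of the pathway lists, and 23.4 ± 0.35 in WT cTreg, where it stood in position 11. In KO eTreg it was 60.3 ± 4.42 and in KO cTreg 23.7 ± 1.80 RPKM.

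Entpd1, the gene of CD39, lies on chromosome 19 (40612366 to 40741602, plus strand) with 5580 bases of exon. It was far less abundant per length than Nt5e, at 6.81 ± 0.49 RPKM in WT cTreg and 10.9 ± 1.34 in WT eTreg (SD, n = 3). Its CPM were 40.5, 38.3 and 35.1 in WT cTreg and 31.3, 32.4 and 28.5 in KO cTreg, so that every KO library was below every WT library. In WT eTreg they were 54.8, 58.5 and 69.2 and in KO eTreg 50.5, 48.3 and 56.9, where 1 KO library lay above 1 WT library. The order of the 4 groups was KO cTreg, WT cTreg, KO eTreg, WT eTreg, and only the last neighbours overlapped.

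Entpd1 fell by 0.30 ± 0.09 on the log2 scale in KO cTreg (SE, n = 3 per group), to 0.81 of the WT level, with an adjusted p of 0.0240 in edgeR's test. Leaving out library 1 or 2 of WT cTreg took that call away (adjusted p = 0.0970 and 0.0618), and so did leaving out library 3 of KO cTreg (0.106). In eTreg the difference was -0.23 ± 0.09 and did not pass (adjusted p = 0.140), with a 95% interval from -0.41 to -0.05. In the 6 eTreg libraries alone, with same-numbered ones blocked, it was -0.24 ± 0.06 and passed (edgeR's adjusted p = 0.00989). It did not pass with the block over all 12 libraries (adjusted p = 0.160) or in the 6 without a block (0.192). The change with CD25 loss differed between the gates by 0.08 ± 0.13 (adjusted p = 0.816), with an interval from -0.19 to 0.35. The B cell gene Cd79b was also lower in KO than in WT, by 0.46 in cTreg and 0.64 in eTreg on the log2 scale (edgeR's adjusted p = 0.0148 and 0.00402). Its part in the Entpd1 values was not tested.

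Between the gates Entpd1 was 1.60-fold higher in WT eTreg than in WT cTreg (log2 fold change 0.68 ± 0.09; edgeR's adjusted p = 3.54e-06) and 1.69-fold higher in KO (0.76 ± 0.09; adjusted p = 1.24e-06). KO cTreg stood at 0.506 of the WT eTreg level (-0.98 ± 0.09; adjusted p = 5.87e-08). Entpd1 has 2 starts in RefSeq. The 250 bases before the second one are shown (GRCm38.p6, plus strand, chr19:40659520-40659769). This is the Entpd1 window that holds none of the motifs searched, and no annotated exon covers it. Whether it controls Entpd1 was not tested.

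Entpd1 second start: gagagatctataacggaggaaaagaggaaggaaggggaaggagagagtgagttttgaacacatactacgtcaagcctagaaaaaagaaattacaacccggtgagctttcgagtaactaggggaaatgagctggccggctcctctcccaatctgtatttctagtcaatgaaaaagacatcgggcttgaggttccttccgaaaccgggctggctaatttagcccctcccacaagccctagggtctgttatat

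P2rx7, the gene of the P2X7 receptor, lies on chromosome 5 (122643911 to 122691432, plus strand) with 5970 bases of exon in 8 annotated transcripts. The counts do not part its transcript forms, of which T cells are known to use one with its own first exon. Its level was 262, 242 and 270.5 CPM in WT cTreg and 226, 224 and 209 CPM in KO cTreg, and every KO library was below every WT library. In eTreg it was 341, 326 and 334 CPM in WT and 357, 324 and 324 CPM in KO, values that overlapped. Per length it stood at 43.2 ± 2.42 RPKM in WT cTreg and 55.9 ± 1.31 in WT eTreg (SD, n = 3), in position 4 of 78 pathway genes in both.

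P2rx7 fell by 0.23 ± 0.06 on the log2 scale in KO cTreg (SE, n = 3 per group; edgeR's adjusted p = 0.00468), a level 0.851 times that of WT. In eTreg the difference was 0.0070 ± 0.05 (adjusted p = 0.968), with a 95% interval from -0.11 to 0.12. The test of the difference between these 2 changes gave 0.24 ± 0.08 and did not pass (adjusted p = 0.107). Leaving out library 2 of WT cTreg made it pass (0.28, adjusted p = 0.0498). The step from cTreg to eTreg was 1.29-fold in WT (log2 fold change 0.37 ± 0.05; edgeR's adjusted p = 1.27e-05) and 1.53-fold in KO (0.61 ± 0.06; adjusted p = 3.82e-08). KO cTreg was thus farther from WT eTreg, at -0.60 ± 0.06 (adjusted p = 5.10e-08), than WT cTreg was.

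The 250 bases before the first RefSeq start of P2rx7 are shown because they hold letters of 2 of the motifs searched (chr5:122643677-122643926, GRCm38.p6, plus strand). The last bases of this window lie in the annotated first exon. Capitals mark TGANTCA, known for AP-1, which 6.75% of all 32851 windows of this length hold on either strand, and GGGCGG (its reverse on the other strand), known for SP and KLF factors, which 32.7% hold. The window of the other P2rx7 start in RefSeq (chr5:122650133-122650382), which is not shown, holds none of the motifs searched. Which start these cells use was not tested.

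P2rx7 first start: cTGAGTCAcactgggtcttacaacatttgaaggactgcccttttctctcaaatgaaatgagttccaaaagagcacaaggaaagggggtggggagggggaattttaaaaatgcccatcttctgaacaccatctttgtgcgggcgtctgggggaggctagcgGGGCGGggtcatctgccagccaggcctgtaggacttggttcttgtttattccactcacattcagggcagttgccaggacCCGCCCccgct

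Ada, the gene of adenosine deaminase, lies on chromosome 2 (163726584 to 163750239, minus strand) with 2002 bases of exon. It was the least abundant of the 5 genes, with 29 to 129 counts per library, so counting error weighs more on it than on the others. Its level was 10.3, 9.01 and 8.37 CPM in WT cTreg and 5.41, 6.40 and 5.54 CPM in KO cTreg. In WT eTreg it was 2.18, 2.12 and 2.71 CPM and in KO eTreg 1.67, 2.15 and 1.83 CPM. The groups stepped down from WT cTreg over KO cTreg to the eTreg groups with no overlap, and only the 2 eTreg groups overlapped.

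Ada fell by 0.67 ± 0.16 on the log2 scale in KO cTreg (SE, n = 3 per group; edgeR's adjusted p = 0.00492), to 0.627 of the WT level. In eTreg the difference was -0.30 ± 0.20 (adjusted p = 0.438), with a 95% interval from -0.72 to 0.11. The difference between the 2 changes was 0.37 ± 0.25 (adjusted p = 0.503), so a like fall in both gates was not told apart from a fall in cTreg alone. Between the gates Ada was 3.95-fold lower in WT eTreg than in WT cTreg (log2 fold change -1.98 ± 0.17; edgeR's adjusted p = 2.54e-08) and 3.06-fold lower in KO (-1.61 ± 0.18; adjusted p = 5.50e-07). KO cTreg, although below WT cTreg, remained 2.48-fold above WT eTreg (1.31 ± 0.18; adjusted p = 4.94e-06).

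Of the 6 RefSeq windows that 4 of the 5 genes have, the 250 bases before the Ada start were the ones with the letters TTCNNNGAA, the core known for STAT5, the transcription factor that the interleukin-2 receptor activates. The window is shown for that reason (GRCm38.p6, minus strand, chr2:163750240-163750489). Capitals mark that match, which begins 90 bases before the start, and GGGCGG. Of all 32851 windows, 7.02% hold TTCNNNGAA. A match is a description of these letters and not evidence of binding.

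Ada start: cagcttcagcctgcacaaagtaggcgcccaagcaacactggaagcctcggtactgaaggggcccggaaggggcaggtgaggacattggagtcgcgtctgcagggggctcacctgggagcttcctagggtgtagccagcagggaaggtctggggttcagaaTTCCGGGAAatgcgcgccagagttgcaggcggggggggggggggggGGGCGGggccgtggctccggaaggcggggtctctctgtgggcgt

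The Nt5e window, which GENCODE places within the first exon of 1 transcript, held GGGCGG in 4 places that overlap in pairs; elsewhere no matches overlapped. The window of the first Entpd1 start held CAGCTG, an E-box known for helix-loop-helix factors, which 13% of windows hold. The letters TGACGTCA (CREB), TGTTTAC (forkhead), TGTGGTT (RUNX), CCGGAAGT (ETS), TACGTG (HIF) and TCACACCT (T-box) were searched on both strands and were in none of the 6 windows. They are in 1.55%, 3.17%, 4.40%, 2.88%, 2.72% and 1.12% of all windows, in that order.

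Adora2a, the gene of the A2A receptor, lies on chromosome 10 (75316877 to 75334784, plus strand) with 3062 bases of exon. Its level was 33.3, 35.0 and 30.5 CPM in WT cTreg and 41.3, 47.7 and 48.1 CPM in KO cTreg, and every KO library was above every WT library. In eTreg it was 41.6, 37.6 and 37.4 CPM in WT and 41.2, 40.7 and 39.1 CPM in KO. The eTreg groups overlapped and lay between the 2 cTreg groups in their means. Per length the range was narrow, from 10.8 ± 0.75 RPKM in WT cTreg to 14.9 ± 1.24 in KO cTreg (SD, n = 3).

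Adora2a rose 1.39-fold in KO cTreg (log2 fold change 0.47 ± 0.08 SE, n = 3 per group; edgeR's adjusted p = 1.91e-04). In eTreg the difference was 0.06 ± 0.07 (adjusted p = 0.752), with a 95% interval from -0.10 to 0.21. It was the 1 member whose change with CD25 loss differed between the gates by the test of that difference, -0.42 ± 0.11 (edgeR's adjusted p = 0.0345), in a test that called 3.80% of all genes. Leaving out any 1 of 7 libraries took that call away: 1 or 3 of WT cTreg, 2 or 3 of KO cTreg, 1 of WT eTreg, and 1 or 3 of KO eTreg. The adjusted p was then 0.0520 to 0.107, and over all libraries left out the difference ran from -0.48 to -0.37.

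The step from cTreg to eTreg was 0.24 ± 0.08 in WT (edgeR's adjusted p = 0.0104) and -0.18 ± 0.07 in KO (adjusted p = 0.0351). The first was lost on leaving out library 3 of WT cTreg (adjusted p = 0.0657) or library 1 of WT eTreg (0.0569). The second ended with DESeq2 size factors (0.0567), with library size without Rn45s (0.0970), in the DESeq2 Wald test (0.0859), and on leaving out library 2 or 3 of either KO group (0.0536 to 0.128). KO cTreg stood above WT eTreg by 0.24 ± 0.07 (adjusted p = 0.00864), a call that ended with library size without Rn45s (adjusted p = 0.0586), and the libraries of these 2 groups overlapped. That comparison called 70.2% of all genes tested, and in 74.1% the libraries did not overlap, as in the other 4 members.

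**Figure D2:**
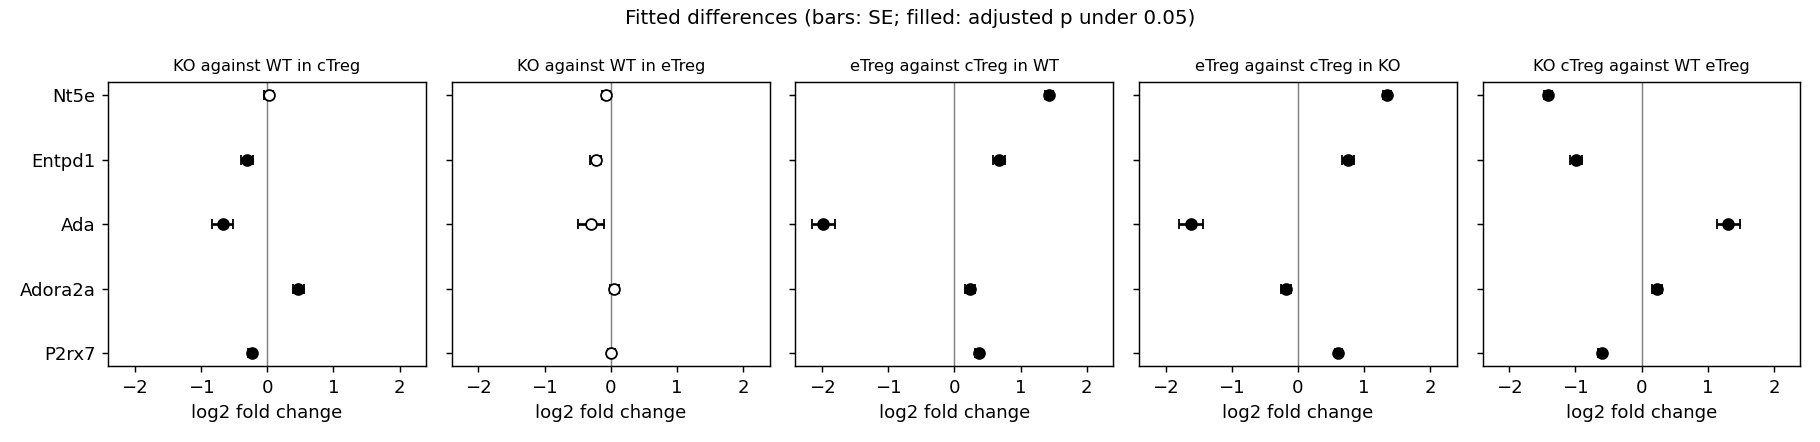
Fitted log2 fold change of each gene in 5 comparisons, with its SE as bars (3 libraries per group); filled points had an adjusted p under 0.05 (edgeR) and open points did not. The changes with CD25 loss are within 0.7 on the log2 scale, and those between gates reach 1.43 for Nt5e and -1.98 for Ada.

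The comparisons share libraries: WT cTreg enters both the CD25 comparison in cTreg and the gate comparison in WT, so their values are given side by side and no agreement between them is drawn. For Ada the change with CD25 loss in cTreg was -0.67 and the step from WT cTreg to WT eTreg was -1.98, both downward. For Adora2a the values were 0.47 and 0.24, both upward. For Entpd1 they were -0.30 and 0.68 and for P2rx7 -0.23 and 0.37, which point in opposite directions. Nt5e had 0.02 and 1.43.

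Ratios of reads within a library do not depend on how libraries are scaled. They compare transcripts and not enzyme activity or adenosine, which were not measured. There were 19.2, 22.3 and 24.4 reads of Nt5e per read of Ada in WT cTreg and 35.0, 34.4 and 36.6 in KO cTreg. In WT eTreg there were 245, 262 and 199, and in KO eTreg 329, 222 and 289. The cTreg groups did not overlap with each other or with eTreg, while the 2 eTreg groups overlapped. The ratio of Nt5e to Entpd1 reads was 4.91, 5.23 and 5.83 in WT cTreg, 6.05, 6.81 and 7.10 in KO cTreg, 9.75, 9.51 and 7.81 in WT eTreg and 10.9, 9.87 and 9.29 in KO eTreg. It was again higher in KO than in WT cTreg in all libraries. These ratios are not corrected for transcript length and no test was made on them.

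**Figure D3:**
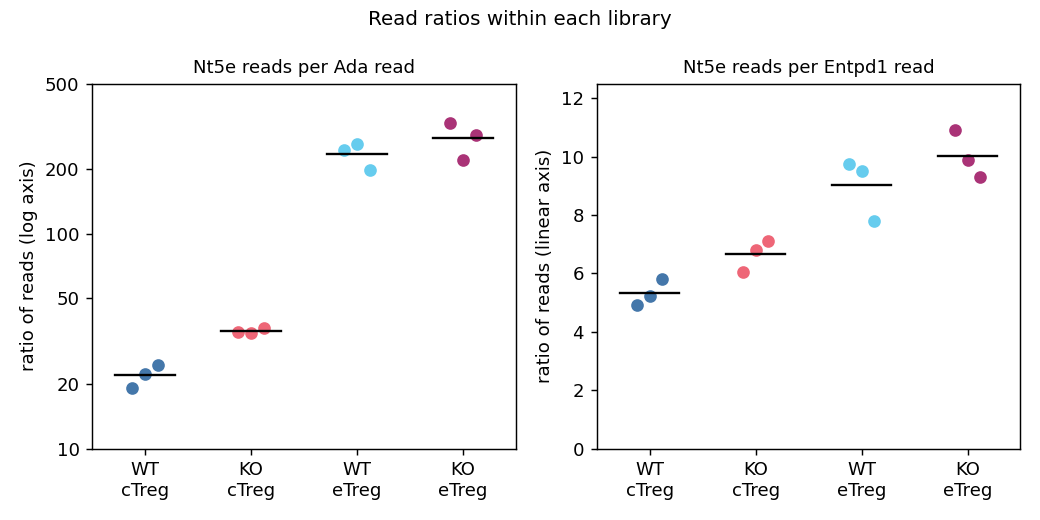
Reads of Nt5e per read of Ada (left, log axis) and per read of Entpd1 (right, linear axis from 0) in each library; points are libraries (3 per group) and black lines are means. The left ratio runs from 19.2 in a WT cTreg library to 329 in a KO eTreg library.

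The other genes of the pathway were taken from 7 lists with 79 distinct genes, of which 78 were in the table and 53 were tested. Of the 14 genes that release ATP and NAD or break them down outside the cell, 8 were tested. In KO cTreg, where 27.5% of all genes were called and 12.6% were lower, 3 fell and 0 rose, and the 3 include Entpd1. The median log2 fold change was -0.18 against 0.0014 over all genes. Slc17a9, the vesicular nucleotide transporter that loads ATP for release, fell from 99.8, 93.3 and 114.7 CPM in WT cTreg to 45.1, 44.7 and 46.3 CPM in KO cTreg (log2 fold change -1.18 ± 0.09 SE, n = 3 per group; edgeR's adjusted p = 9.01e-08). It was the 1 gene of this list that fell in KO eTreg as well, from 19.3, 24.9 and 23.5 to 12.8, 14.9 and 13.6 CPM (-0.72 ± 0.10; adjusted p = 4.18e-04). The third was Alpl, a phosphatase (-1.55 ± 0.53; adjusted p = 0.0387), low at 0.999 CPM in WT cTreg, whose call was lost on leaving out library 1 or 3 of WT cTreg or 2 or 3 of KO cTreg (adjusted p up to 0.148). With the block in only the 6 eTreg libraries 4 of the 8 fell and 1 rose, against 1 and 0 with the block over 12. Over all genes these 2 fits called 1712 and 857, against 829 in the main fit. In the first, besides Slc17a9 and Entpd1, Cd38 (-0.32 ± 0.07) and Enpp1 (-0.26 ± 0.07) fell and Art2b (0.29 ± 0.05) rose. Cd38, Enpp1 and Art2b are named here after their values were seen.

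Between the gates all 8 genes were called in each genotype, 6 higher and 2 lower in eTreg, where 71.5% (WT) and 72.0% (KO) of all genes were called. The median was 0.81 in WT and 0.92 in KO. Cd38, an ectoenzyme that consumes NAD, was 2.13 ± 0.15 higher in WT eTreg on the log2 scale, at 49.5, 56.8 and 52.5 CPM against 13.3, 8.65 and 14.4 CPM in WT cTreg (edgeR's adjusted p = 4.02e-08). Art2b, which encodes the ARTC2 enzyme that uses NAD to trigger P2X7, was 0.93 ± 0.17 higher (adjusted p = 7.97e-04). It has a close copy, Art2a, which is not analysed here, so its reads may be shared. Slc17a9 (-2.18 ± 0.09) and Panx1, a channel through which ATP leaves cells (-0.52 ± 0.06), were the 2 lower genes. In KO eTreg against KO cTreg the values were 2.21 for Cd38, 1.09 for Art2b, -1.72 for Slc17a9 and -0.52 for Panx1.

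Of the 9 genes listed for the turnover of adenosine and its product inosine or for their transport, 7 were tested. In KO cTreg 2 rose and 3 fell (median -0.14), where 27.5% of all genes were called, 14.8% higher and 12.6% lower. Besides Ada, the nucleoside transporters Slc29a2 (-0.94 ± 0.28; edgeR's adjusted p = 0.0177) and Slc29a3 (-0.25 ± 0.07; adjusted p = 0.0129) fell. Adk, the kinase that turns adenosine back into AMP, rose from 33.9, 31.1 and 35.0 CPM to 46.1, 50.8 and 55.4 CPM (0.61 ± 0.13; adjusted p = 0.00421), and Pnp, which splits inosine, rose by 0.47 ± 0.14 (adjusted p = 0.0175); its exons overlap those of another annotated gene, so its reads are uncertain. Adenosine deaminase and adenosine kinase thus moved in opposite directions in the same libraries. The calls of Pnp, Slc29a2 and Slc29a3 each depended on single libraries. Leaving out library 1 or 2 of WT cTreg, or 2 or 3 of KO cTreg, ended that of Pnp (adjusted p up to 0.0797). Library 1 of WT cTreg, or 2 or 3 of KO cTreg, did so for Slc29a2 (up to 0.0656), and library 3 of either group for Slc29a3 (up to 0.0790). In eTreg, where 6.65% of all genes were called, 0 of the 7 were called with CD25 loss by edgeR's test. The count of those lower was 1 under 11 of 22 alternatives, the DESeq2 Wald test and limma-voom among them. With the block in only the 6 eTreg libraries, a fit that called 1712 genes, 1 rose, Adk (0.35 ± 0.06), and 1 fell, Slc29a1 (-0.31 ± 0.06). Both are named after their values were seen. Slc29a1 has an antisense partner whose reads may be counted with it. Of the pathway genes named below, Adora1, Adora3, P2ry1, Adcy6, Crem, Prkar1b, Pde7a, Pycard, Adam17 and Il1b also overlap another annotated gene in their exons. The exons of P2rx7 overlap a microRNA gene. Between the gates 0 were higher and 3 lower in WT eTreg, and 0 higher and 4 lower in KO eTreg, against 71.5% and 72.0% of all genes called. Ada had the largest fall among them in both. In KO the count lower was 2 without library 1 of KO eTreg, and 1 gene was higher under 6 alternatives, the DESeq2 Wald test among them.

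Of the 4 adenosine receptors, Adora2a was the 1 with enough reads to be tested. Adora1 and Adora2b had at most 2 counts in any library, and Adora3 at most 3. Of the 7 P2X receptors 3 were tested. P2rx4, whose product is another ATP-gated channel and whose gene is a relative of P2rx7, fell in KO cTreg from 23.4, 20.8 and 26.6 to 17.9, 18.0 and 16.4 CPM (-0.43 ± 0.11; edgeR's adjusted p = 0.00656). Per length P2rx4 stood at 3.36 ± 0.41 RPKM in WT cTreg (SD, n = 3), against 43.2 for P2rx7. P2rx5 was near 0, at 0 to 0.0802 CPM in WT cTreg and 0.553 to 1.02 CPM in WT eTreg. Of the 7 P2Y receptors, P2ry1 and P2ry14 were tested and neither was called with CD25 loss. P2ry1 was lower in KO eTreg than in KO cTreg (-1.27 ± 0.36; adjusted p = 0.00448), at 0.935 against 2.25 CPM, and with the block in only the 6 eTreg libraries it also fell with CD25 loss (-1.09 ± 0.28; adjusted p = 0.0163), but not with the block over 12.

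The A2A receptor signals through cyclic AMP, and of the 29 genes listed for that route 25 were tested. In KO cTreg 6 rose and 2 fell (median 0.08), a share near the 27.5% called over all genes. Among the genes that rose were phosphodiesterases, which break cyclic AMP down: Pde3b went from 16.9, 22.3 and 17.4 CPM to 63.2, 43.6 and 48.4 CPM (log2 fold change 1.45 ± 0.19 SE, n = 3 per group; edgeR's adjusted p = 2.62e-04) and Pde7a rose by 0.96 ± 0.09 (adjusted p = 3.40e-06). Adcy7, an adenylyl cyclase that makes cyclic AMP, rose from 293, 365 and 304 to 433, 429 and 440.2 CPM (0.44 ± 0.07; adjusted p = 1.32e-04). Pde4a fell (-1.15 ± 0.33; adjusted p = 0.0150), at 2.42 and 1.08 CPM in WT and KO, and lost its call on leaving out library 3 of WT cTreg (0.0909) or library 1 of KO cTreg (0.0566). The other gene that fell was Prkar1b, a regulatory subunit of the cyclic AMP-dependent kinase, with 24 to 36 counts in WT and 0 to 5 in KO (-3.67 ± 0.56; adjusted p = 1.07e-04). The naming rule does not take this gene, which was added once its values were known.

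In KO eTreg 3 of the 25 rose and 0 fell, where 6.65% of all genes were called. They were 3 of the phosphodiesterase genes, of which the list tests 8: Pde3b (0.85 ± 0.18; edgeR's adjusted p = 0.0205), Pde4d (0.52 ± 0.08; adjusted p = 6.88e-04) and Pde7a (0.45 ± 0.08; adjusted p = 0.00428). The call of Pde3b was lost with the block in only the 6 eTreg libraries (adjusted p = 0.113) or over 12 (0.0530) and on leaving out library 2 or 3 of either eTreg group (adjusted p up to 0.0897). With the first block, which called 1712 genes over all, 4 genes of this list rose and 1 fell. With the second, which called 857, 2 rose and 1 fell. Between the gates 8 genes were higher and 6 lower in WT eTreg, and 10 higher and 6 lower in KO eTreg, smaller shares than the 71.5% and 72.0% of all genes. Adcy6, another adenylyl cyclase, was the largest fall, from 54.1, 49.7 and 68.5 CPM in WT cTreg to 3.87, 4.56 and 3.28 CPM in WT eTreg (-3.86 ± 0.24; adjusted p = 1.44e-07). Crem, a cyclic AMP-responsive factor, was 1.54 ± 0.13 higher in WT eTreg and 1.60 ± 0.12 higher in KO eTreg.

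Of 10 genes known as partners or outcomes of P2X7 in T cells 8 were tested, and in KO cTreg 4 rose and 0 fell (median 0.24), where 27.5% of all genes were called and 14.8% were higher. Casp1, a protease of the inflammasome, rose from 17.9, 22.3 and 13.2 to 40.1, 50.2 and 37.3 CPM (1.26 ± 0.17; edgeR's adjusted p = 2.57e-04), and its adaptor Pycard rose by 0.71 ± 0.12 (adjusted p = 7.03e-04). Nlrp3, the sensor of that complex, had at most 3 counts in any library and Il1b at most 1. Adam17 (0.27 ± 0.06; adjusted p = 0.00457), a protease that sheds surface proteins, rose as well. In KO eTreg Casp1 rose by 0.54 ± 0.14 (adjusted p = 0.0398), a call that was lost under 12 alternatives, among them leaving out any of the 6 eTreg libraries (0.0800 to 0.140). It was lost with the replicate block over 12 libraries (adjusted p = 0.0601) and held with the block in only the 6 eTreg libraries (0.54 ± 0.05; adjusted p = 5.82e-06).

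**Figure D4:**
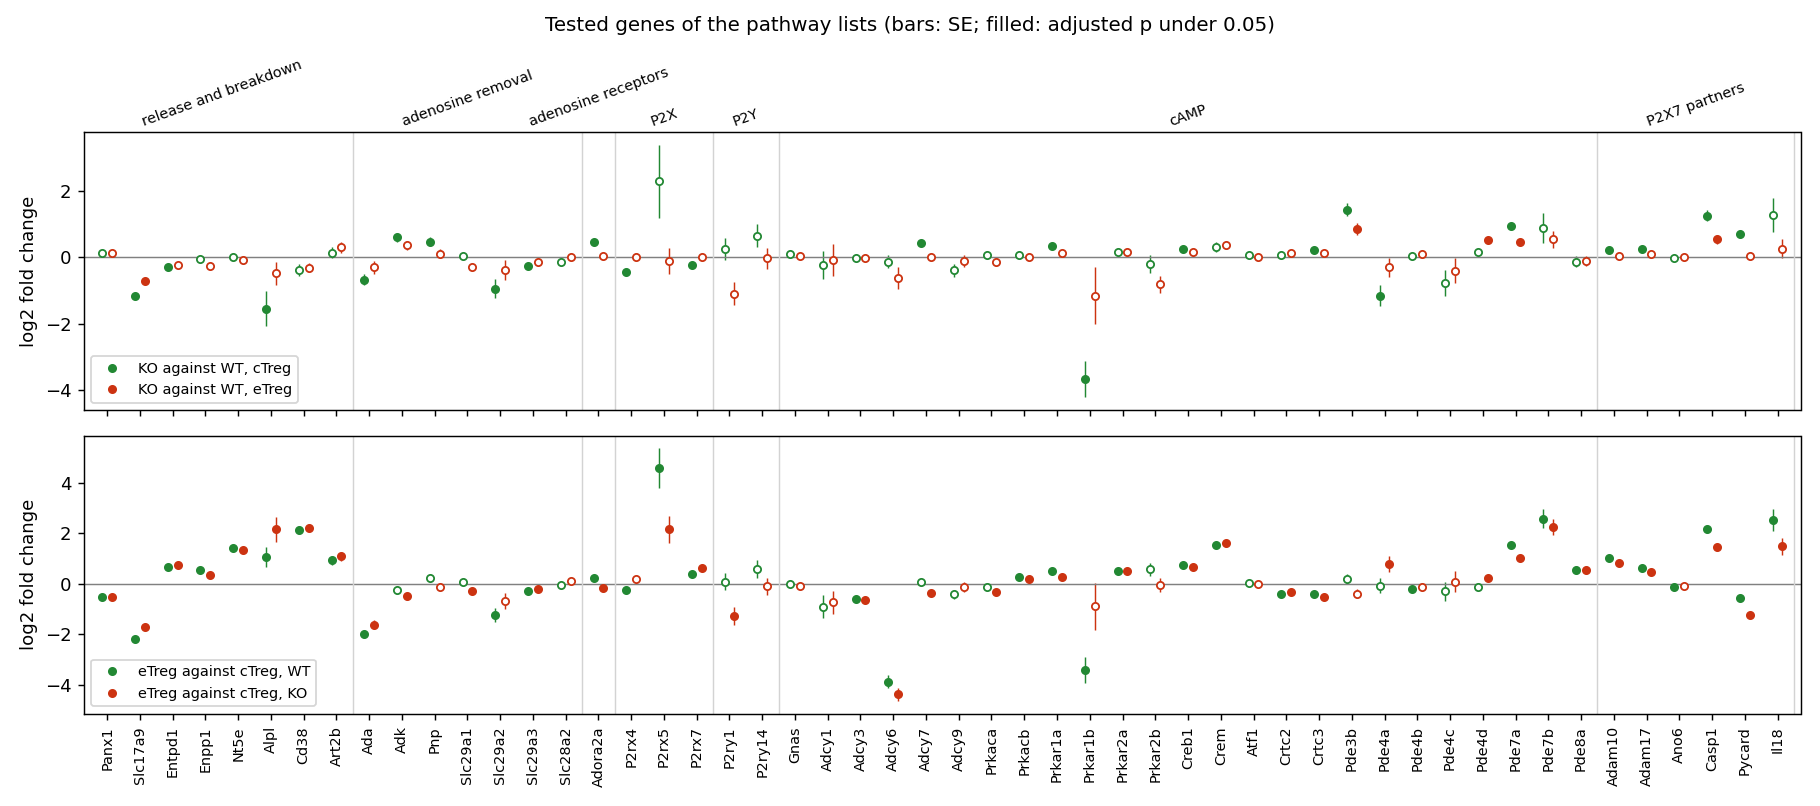
Fitted log2 fold changes with SE for the tested genes of the 7 lists, with 1 gene left out, grouped by list, for CD25 loss in the 2 gates (top) and for the gates in the 2 genotypes (bottom); filled points passed an adjusted p of 0.05 and a gene in 2 lists is drawn once. Called genes are more numerous between gates (bottom) than with CD25 loss (top), and few are called in KO against WT eTreg.

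As a description of pattern, each gene was compared with 8610 other tested genes (8611 for Ada) that had a mean log2 CPM of at least 3, by Pearson's r of log2 CPM over the 12 libraries. These libraries form 4 groups, and the gate and the share of Rn45s move together in them, so high values are common and no test is given. Nt5e was most like AI597479 (r = 0.995), Zc3h12c (0.993) and Slamf1 (0.993). Entpd1 was most like Bbs12 (0.980), Gtpbp4 (0.980) and Ppat (0.979). P2rx7 was most like Sav1 (0.984), Cep85l (0.982) and Bet1 (0.982). Among the genes most like Ada were the ribosomal protein genes Rps15 (0.994) and Rpl11 (0.993). Adora2a, with the smallest range over the groups, had the lowest values, with Plekho2 (0.962), Ubl3 (0.933) and Gstt2 (0.933).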

How the data were processed

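RNA of 12 libraries of sorted mouse Tregs was measured in 4 groups of 3, by the sample titles. The deposited values are raw read counts per gene symbol. Per the submitters' processing notes HISAT2 2.2.1, mm10 and Cell Ranger were used, with no role given; how reads were counted, with which annotation and strand setting, is not given in the sources used here. The KAPA RiboErase kit is named per the labels' protocols.

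The model was edgeR 4.0.16 (R 4.3.3), on the 12461 genes that filterByExpr left, with TMM factors and 1 mean per group for the 12 libraries (common biological coefficient of variation 0.0768). Two-sided quasi-likelihood F-tests were adjusted by Benjamini-Hochberg over all genes in each of 6 contrasts and called under 0.05. SE is the log2 fold change divided by the square root of F; intervals are 95%. The steps were run on simulated counts with genes changed in KO cTreg alone and no difference between the gates. That setting does not cover differences between gates as wide as those here. Positions and exon lengths are from GENCODE vM21 on mm10 and promoter windows from RefSeq on GRCm38.p6. The table holds 27 symbols changed into dates by a spreadsheet, which count in totals only.

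The members, the lists and the tests were chosen with earlier results of these data known. Named genes were the 5 members and, in each list and contrast, up to 3 called genes in each direction whose mean log2 CPM was not below 0, of which some are left out for length. Same-numbered KO and WT eTreg libraries deviated together from their group means (r = 0.257, 0.341 and 0.166), and no other pair of groups met the minimum of 0.1 in all 3, so the block is read in eTreg. That choice was made from the same libraries, so the smaller adjusted p values with the block in eTreg are no separate support. No label ties a number to a litter or day. No 2 libraries of a group were duplicates (chi-squared per degree of freedom 3.74 to 10.5). Alternatives were DESeq2 1.42.0 size factors and its Wald test, limma-voom (limma 3.58.1), upper-quartile scaling, library size without Rn45s, other filters, the replicate block, only the libraries compared, and leaving out each library. Results on 3 genes are not reported here.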

Additional observations from a re-analysis of the deposited data

Results flagged for a closer look

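In 3 genes the change with CD25 loss differed between the gates by the test of that difference (edgeR's quasi-likelihood test, change in eTreg minus change in cTreg, n = 3 per group), of 53 pathway genes tested; over all genes 3.80% were called. For Adora2a it was -0.42 ± 0.11 (adjusted p = 0.0345), with KO above WT in 3 of 3 cTreg libraries and overlap in eTreg. Leaving out any 1 of 7 libraries took that call away (adjusted p up to 0.107). For Pde7a it was -0.50 ± 0.12 (adjusted p = 0.0356), and for Adcy7 -0.41 ± 0.10 (adjusted p = 0.0186). The calls of Pde7a and Adcy7 in this test were not tried under the alternatives or with libraries left out. Pde7a rose in both gates and Adcy7 in cTreg.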

How the results depend on the processing

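Of 30 results on members (5 genes in 6 contrasts), 21 kept their direction and their side of the threshold under all 20 to 22 alternatives. For Nt5e in KO against WT cTreg the log2 fold change was -0.0092 with upper-quartile scaling and -0.047 to 0.073 on leaving out 1 library, against 0.02. For P2rx7 in KO against WT eTreg it was -0.023 with upper-quartile scaling, -0.026 with library size without Rn45s, -0.0030 with only the libraries compared, -0.0045 with the replicate block in them, and -0.041 to 0.031 without 1 library. Entpd1 in KO against WT cTreg ranged from -0.36 to -0.25 without 1 library, and in eTreg the replicate block gave -0.24. Adora2a between the gates was 0.18 to 0.28 in WT and -0.25 to -0.15 in KO without 1 library; in KO it was -0.16 with DESeq2 size factors, -0.14 with library size without Rn45s and -0.16 in the DESeq2 Wald test. For KO cTreg against WT eTreg it was 0.16 with library size without Rn45s, and its difference between gates ran from -0.48 to -0.37 without 1 library. The P2rx7 difference between gates ran from 0.19 to 0.28. Over all genes, 1712 were called in KO against WT eTreg with the replicate block in only those libraries, and 455 to 890 without 1 library, against 829; the difference between gates gave 314 to 570 without 1 library, the lowest without KO cTreg replicate 2, against 474. The replicate block over 12 libraries changed no call of a member (857 genes called in eTreg), and the block in only the libraries compared changed that of Entpd1 in eTreg alone. The cause of these changes was not tested. Scaling moved the median log2 fold change of all genes by at most 0.08. Ada had 29 to 129 counts per library and the widest intervals of the 5 genes.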
